A study of Mus musculus with 14 samples.

Results

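The genes described are 10 enzymes and carriers of energy metabolism, taken by symbol from both deposited count tables, in which all 10 were found among 32667 gene entries for spermatogonia and 36888 for spermatocytes. In 8 of them (Ldhc, Pgk2, Gapdhs, Pdha2, Cox8c, Cox6b2, Cyct and Aldoart1) the gene is a testis copy of an enzyme or carrier made elsewhere in the body by another gene. The remaining members, Ldha and Hk1, are expressed in many tissues and were taken for comparison. Polyadenylated RNA was sequenced from germ cells of C57Bl6/J mice in 14 libraries. These were 3 libraries of spermatogonia (Spg) from Dnmt3C KO/KO mice, which lack the germline DNA methyltransferase DNMT3C, 3 of wild-type (WT) spermatogonia, and 4 each of KO and WT spermatocytes (Spc). Spermatogonia came from testes at postnatal day 14, sorted as live cells negative for β2-microglobulin and positive for Ep-CAM. Spermatocytes came from mice older than 20 days, sorted on the DNA dye Hoechst with propidium iodide to leave out dead cells. The methods give the gate as 2N DNA content, although spermatocytes in meiotic prophase have replicated their DNA, so the cells in these libraries are described by their markers below. Stage, age and sorting method therefore change together and cannot be told apart. The mutants arrest in meiosis at pachytene, so that the KO gate lacks the later meiotic cells and spermatids that a WT testis holds. In bulk RNA, fewer cells of a type and less RNA per cell cannot be told apart. The names KO and WT are used for libraries as their labels give them.

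Glycolysis splits glucose into pyruvate, lactate dehydrogenase interconverts pyruvate and lactate, the pyruvate dehydrogenase complex passes pyruvate carbon into the citric acid cycle, and cytochrome c carries electrons to cytochrome c oxidase, the last complex of the respiratory chain. Meiotic germ cells feed largely on lactate from Sertoli cells, and from meiosis onward the male germline switches on its own copies of several of these proteins. Pgk2 and Pdha2 are intronless copies of genes on the X chromosome, which is silenced in the nucleus of pachytene spermatocytes.

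The libraries had totals of 40.6 to 53.3 in units of 1000000 counts. Dnmt3c RNA was not lower in the KO libraries and so did not check their labels: spermatogonia had 58 to 116 counts of it in the KO and 53 to 89 in the WT, and spermatocytes 52 to 57 counts in the KO and 11 to 28 in the WT. Levels below are CPM, counts per 1000000 counts after TMM scaling, and a change counted as called where edgeR's quasi-likelihood test, adjusted over all features by Benjamini-Hochberg, gave an adjusted p under 0.01. Of 10 pachytene markers and 10 spermatid markers, all 20 were called lower in KO spermatocytes, where 30.7% of all genes were called lower and 28.0% higher. The summed level of the pachytene list was 195 to 321 CPM in KO and 6318 to 10994 CPM in WT. Sums of the spermatid list cover 9 genes, without Prm1, which was listed for spermatocytes alone, and were 3.82 to 11.9 CPM in KO against 98.4 to 1364 CPM in WT. Prm1 had 0, 0, 104 and 3 counts in KO and 346 to 12381 in WT spermatocytes. The early meiotic list summed to 1251 to 2320 CPM in KO and 1324 to 2385 CPM in WT spermatocytes, with 4 of 8 genes called higher and 1 lower. Spermatogonial markers were called higher for 6 of 10 genes and lower for 2, Id4 (-4.70) and Dmrtb1 (-3.54). The sum of that list was 407 to 950 CPM in KO and 877 to 1946 CPM in WT spermatocytes. Markers of other testis cells were called higher in KO spermatocytes for 6 of 6 Leydig, 5 of 6 macrophage, 3 of 5 peritubular and 1 of 9 Sertoli genes. All 9 Sertoli genes had positive log2 changes, from 0.82 (Amh) to 2.90 (Gata4). The Sertoli sum was 279 to 1034 CPM in KO against 126 to 486 CPM in WT. The Leydig sum was 57.3 to 356 CPM against 14.1 to 30.4 CPM, and none of 2 erythroid genes tested was called. In spermatogonia the spermatogonial list summed to 1281 to 1562 CPM in KO and 1070 to 1476 CPM in WT. The early meiotic list summed there to 706 to 1105 CPM in KO and 1041 to 1250 CPM in WT. The Sertoli list summed there to 401 to 1397 CPM in KO and 295 to 1079 CPM in WT. The part of these lists in the results below was not tested.

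All 10 genes are protein coding. Ldha (chr7:46841475-46855627, GRCm38, plus strand) and Ldhc (chr7:46861203-46878142, plus strand) lie next to each other on chromosome 7, with 5575 bases between them. Chromosome 7 also holds Gapdhs (chr7:30729775-30743681, minus strand) and Cox6b2 (chr7:4751792-4753094, minus strand). Pgk2 (chr17:40207015-40208640), Pdha2 (chr3:141210004-141212355) and Aldoart1 (chr4:72850583-72852634) lie on the minus strand and have a single exon in the annotation. Cyct (chr2:76353942-76360450) and Hk1 (chr10:62268855-62379908) lie on the minus strand, and Cox8c (chr12:102899316-102900526) on the plus strand.

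The promoters of genes that moved together across the libraries are shown so that the neighbours Ldhc and Ldha and the intronless Pgk2 and Pdha2 can be read side by side. Sequences are from RefSeq on GRCm38.p6, 250 bases before to 50 after the annotated start, 5′ to 3′ on the strand of the gene. RefSeq's table held entries for 8 of the 10 genes, all except Cox8c and Aldoart1. Capitals mark any of 6 motifs on either strand: the cAMP response element CRE (TGACGTCA), its core TGACG, a MYB motif (GGCAGTT), the CCAAT box (CCAAT), the GC box (GGGCGG) and the TATA box (TATAAA). The lines give, in order, Ldhc (chr7:46861013-46861312, plus), Ldha (chr7:46845554-46845853, plus), Pgk2 (chr17:40208560-40208859, minus), Pdha2 (chr3:141212306-141212605, minus) and Cyct (chr2:76360404-76360703, minus).
Ldhc: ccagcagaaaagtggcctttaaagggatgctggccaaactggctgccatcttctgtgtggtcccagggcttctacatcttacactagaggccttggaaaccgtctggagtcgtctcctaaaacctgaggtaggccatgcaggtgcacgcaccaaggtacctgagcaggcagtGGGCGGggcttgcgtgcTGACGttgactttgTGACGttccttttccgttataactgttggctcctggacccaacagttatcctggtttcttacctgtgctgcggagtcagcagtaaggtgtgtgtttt
Ldha: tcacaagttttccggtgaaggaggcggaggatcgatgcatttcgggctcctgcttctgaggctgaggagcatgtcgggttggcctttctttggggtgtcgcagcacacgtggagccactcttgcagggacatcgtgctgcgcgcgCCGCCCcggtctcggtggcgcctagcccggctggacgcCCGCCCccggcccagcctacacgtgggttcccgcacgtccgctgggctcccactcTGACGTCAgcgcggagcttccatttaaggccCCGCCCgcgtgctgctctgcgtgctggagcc
Pgk2: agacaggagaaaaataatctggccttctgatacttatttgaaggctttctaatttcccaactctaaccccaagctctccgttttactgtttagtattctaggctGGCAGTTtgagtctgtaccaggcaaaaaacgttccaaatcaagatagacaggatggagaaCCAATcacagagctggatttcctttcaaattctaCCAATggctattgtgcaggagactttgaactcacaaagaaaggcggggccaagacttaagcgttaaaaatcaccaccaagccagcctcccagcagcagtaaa
Pdha2: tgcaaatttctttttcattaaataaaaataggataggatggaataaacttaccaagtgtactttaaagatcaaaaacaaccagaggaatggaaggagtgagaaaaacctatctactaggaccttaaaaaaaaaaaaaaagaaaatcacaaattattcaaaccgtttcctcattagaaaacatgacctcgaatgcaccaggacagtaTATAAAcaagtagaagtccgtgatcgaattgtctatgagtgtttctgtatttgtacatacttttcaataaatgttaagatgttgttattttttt
Cyct: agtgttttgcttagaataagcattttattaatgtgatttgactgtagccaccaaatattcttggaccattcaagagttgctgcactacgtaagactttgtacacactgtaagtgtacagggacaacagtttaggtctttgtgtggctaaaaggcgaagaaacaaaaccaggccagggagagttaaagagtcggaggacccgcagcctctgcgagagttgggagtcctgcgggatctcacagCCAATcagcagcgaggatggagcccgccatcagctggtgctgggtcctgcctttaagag
The CRE core lay 61 and 47 bases before the Ldhc start, next to a GC box at 78 bases. Of 32851 promoters of this length, 20.8% held the core and 1.79% the whole CRE, which was found 12 bases before the Ldha start and not in the Ldhc window. The Pgk2 promoter held a MYB motif 146 bases before the start (4.12% of promoters) and CCAAT boxes at 86 and 52 bases (37.4%). A TATA box stood 44 bases before the Pdha2 start (13.6%), and a CCAAT box 9 bases before that of Cyct. GC boxes were in 35.7% of promoters. RefSeq also gave a second start for Ldhc and for Ldha, not printed, whose windows held no whole CRE and of which that of Ldha held a MYB motif 135 bases before the start. CpG dinucleotides numbered 9 in the printed Ldhc window and 3 in the other, 30 in the printed Ldha window and 13 in the other, 4 each in Pgk2 and Pdha2, and 8 in Cyct, beside a median of 7 over all promoters. In the somatic counterparts they numbered 24 in Pgk1, 21 in Pdha1 and 32 in Cycs. A match describes these letters only.

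In wild-type cells all 10 genes were higher in spermatocytes than in spermatogonia, where 29.2% of all genes tested were called higher. Leaving out Gapdhs, the log2 differences ran from 3.09 (SE 0.37) for Cyct to 6.96 (SE 1.26) for Pgk2, with adjusted p of at most 0.000316 for all 10. In each gene every spermatocyte library lay above every spermatogonia library, as for 35.3% of all genes. The median over the 10 genes was 4.65, beside 0.02 over all genes. Gapdhs, the testis form of the glycolytic enzyme glyceraldehyde-3-phosphate dehydrogenase, had 1, 4 and 0 counts in the WT spermatogonia and 3506, 738, 10241 and 2852 counts in the WT spermatocytes. Relative to the summed library totals of each group, the 5 counts were 0.0424% of the level given by the 17337 counts, with an exact 95% interval of 0.0138 to 0.0989% that covers counting error only.

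Per kilobase of merged exons, Ldhc was at 3395 ± 1086 CPM (SD, n = 4) in WT spermatocytes, above every other member in every library. Cox8c followed at 1406 ± 319 CPM per kilobase, and lay above the next gene in every library. Below them stood Ldha (629 ± 213), Cox6b2 (393 ± 58.1) and Cyct (333 ± 49.0), and the libraries of Cox6b2 overlapped those of both its neighbours in this order. Pdha2 (206 ± 34.1), Pgk2 (170 ± 96.6) and Gapdhs (73.8 ± 57.6) each overlapped the gene that followed, the last of them Hk1 (50.3 ± 19.1). Aldoart1 was last at 6.33 ± 3.42 CPM per kilobase, below Hk1 in every library. Scaled by library totals the order was the same, but the Ldhc level was 2234. Ldhc alone took 0.255 to 0.415% of all counts in the WT spermatocyte libraries.

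**Figure D1:**
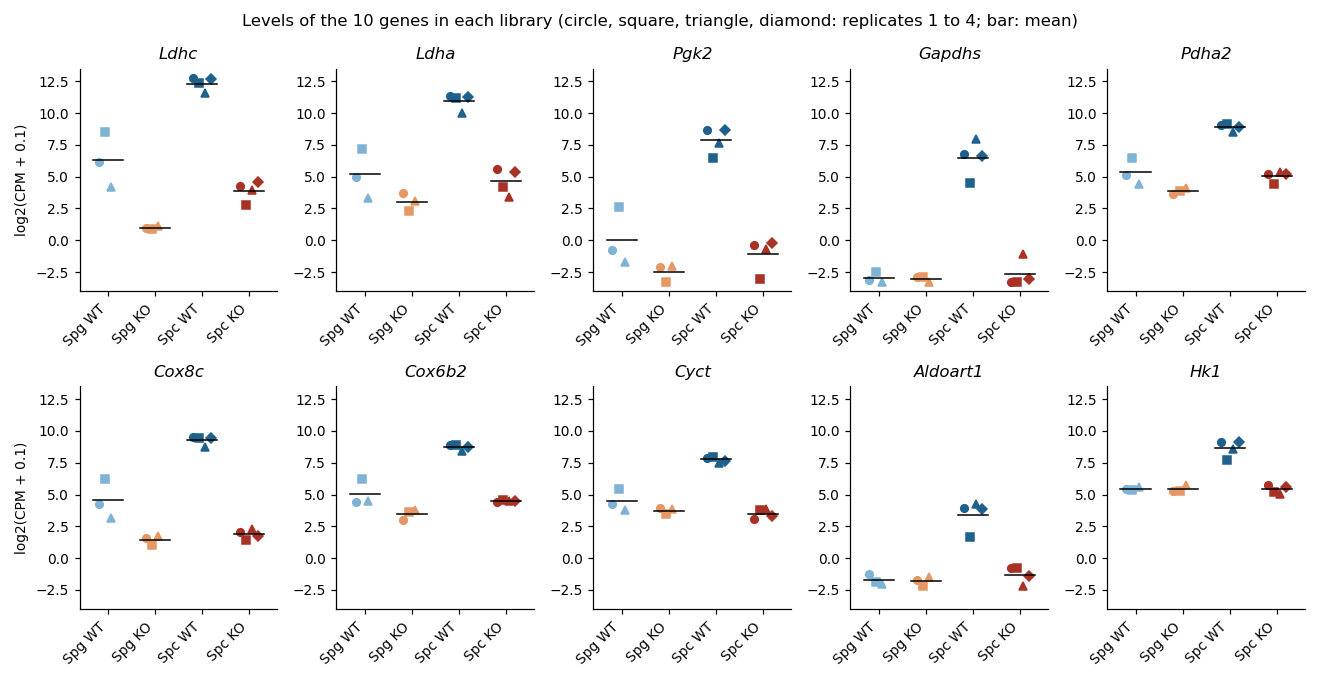
Level of each gene in every library, as log2 of CPM with 0.1 added, with 1 point for each library, a bar at the mean of the log2 values and the 4 groups by colour. For each of the 10 genes the 4 WT spermatocyte libraries lie above all other libraries, with Ldhc between 3014 and 6836 CPM.

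In spermatocytes, a comparison that shares the WT spermatocyte libraries with the one above, all 10 genes fell in the KO, with log2 changes from -3.31 (Hk1) to -9.13 (Pgk2) when Gapdhs, which was at or near 0, is set aside. Across all genes tested 30.7% were called lower, and the groups of libraries lay apart in this direction for 34.3% of genes and for all 10 members. The median log2 change was -5.67 over the 10 genes and 0.11 over all genes. Each of the 10 calls held in all 15 alternatives, with adjusted p of at most 0.00295.

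Both lactate dehydrogenase genes fell. Ldhc, the germ cell lactate dehydrogenase subunit, was at 6836, 5185, 3014 and 6419.9 CPM in WT spermatocyte replicates 1 to 4 and at 19.4, 6.68, 15.4 and 24.4 CPM in the KO. All KO libraries lay far below all WT libraries, at 0.310% of the WT level (log2 fold change -8.33, SE 0.55, adjusted p = 3.59e-06 by edgeR). Ldha, the somatic subunit that forms lactate from pyruvate, was at 2539, 2296, 1036 and 2454 CPM in WT and at 49.0, 18.0, 10.4 and 41.8 CPM in KO. It too fell to 1.44% of WT (-6.11, SE 0.60, adjusted p = 2.28e-05), with the WT library of replicate 3 the lowest of its group. Of the 50-base windows of Ldha transcripts, 9.03% occur also in other genes (most often in Gm5452), so part of its counts is uncertain, and none of those of Ldhc does.

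Among glycolytic enzymes, Hk1, the hexokinase that traps glucose in the cell, was at 553, 215, 391 and 558 CPM in WT spermatocytes and at 54.4, 36.4, 33.1 and 48.5 CPM in KO. It fell by 3.31 (SE 0.35, adjusted p = 3.73e-05), to 10.1% of WT, the smallest loss among the 10 genes. Outside WT spermatocytes its level hardly differed between groups, with means of 43.8 ± 9.29, 43.8 ± 3.37 and 43.1 ± 10.0 CPM in KO spermatogonia, WT spermatogonia and KO spermatocytes. Germ cells also make Hk1 transcripts from promoters of their own, which gene counts do not separate.

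Aldoart1, an intronless relative of aldolase A, was the least abundant member per length in WT spermatocytes, where it had 500, 99, 807 and 408 counts. It had 24, 27, 6 and 14 counts in KO spermatocytes. It fell to 2.67% of WT (-5.23, SE 0.71, adjusted p = 0.000152). Of its 50-base windows 5.79% occur in other genes, most of them in Aldoa, so its low counts are uncertain. Gapdhs had 0, 0, 20 and 1 counts in the KO spermatocytes, so 20 of 21 counts came from replicate 3. Relative to the library totals, the 21 counts were 0.131% of the WT level (exact 95% interval 0.0811 to 0.200%), and its fitted log2 change of -10.13 (SE 1.28, adjusted p = 0.000104) depends on the prior count. Pgk2, the testis phosphoglycerate kinase, which yields ATP in glycolysis, was at 415, 90.7, 202 and 398 CPM in WT and at 0.69, 0.02, 0.51 and 0.75 CPM in KO. The KO level was 0.178% of WT (-9.13, SE 0.93, adjusted p = 2.87e-05), and its lowest KO library held 1 count.

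Pdha2, the testis form of the pyruvate dehydrogenase E1 alpha subunit, was left at a level between those of Hk1 and Aldoart1. It was at 532, 553, 373 and 483 CPM in WT spermatocytes and at 36.4, 21.1, 40.2 and 36.6 CPM in KO, where 7.02% of the WT level was left (-3.83, SE 0.27, adjusted p = 4.42e-06).

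The respiratory chain members fell by unequal amounts. Cox8c, a testis form of cytochrome c oxidase subunit 8, was at 745, 713, 427 and 689.7 CPM in WT and at 4.04, 2.53, 4.84 and 3.16 CPM in KO, or 0.572% of WT (-7.45, SE 0.35, adjusted p = 2.53e-06). Cox6b2, the testis form of subunit 6B, was at 474, 485, 343 and 438 CPM in WT and at 20.98, 24.0, 22.0 and 22.6 CPM in KO. The KO libraries were close together, at 5.22% of WT (-4.26, SE 0.20, adjusted p = 2.53e-06). Cyct, the testis cytochrome c, was at 240.0, 249, 180 and 204 CPM in WT and at 8.27, 13.4, 14.2 and 9.67 CPM in KO. It was left at 5.30% of WT (-4.24, SE 0.26, adjusted p = 2.81e-06). In the KO spermatocytes Cox6b2 (20.2 ± 1.13), Cyct (17.4 ± 4.39) and Pdha2 (14.3 ± 3.61 CPM per kilobase) stood first in the order per length, with overlapping ranges, and Ldhc was 4th at 10.4 ± 4.75.

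**Figure D2:**
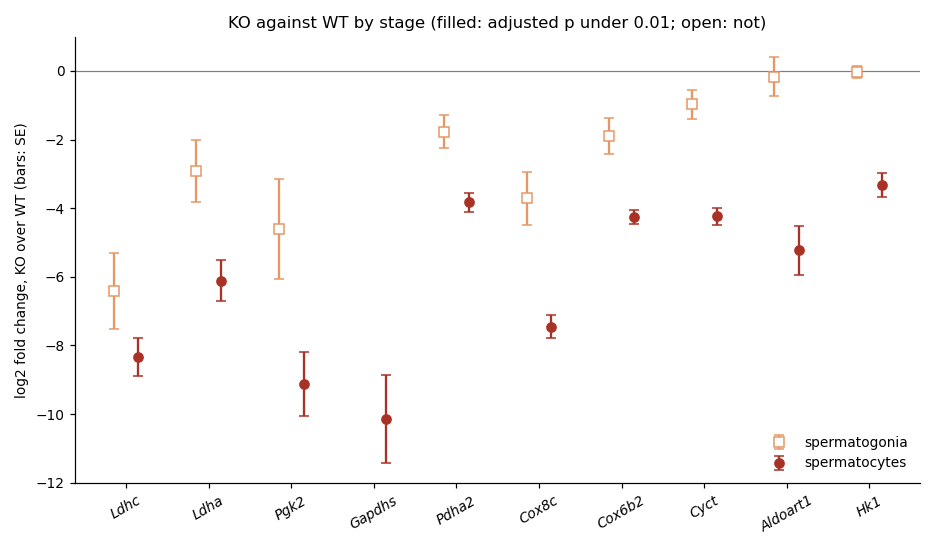
Log2 fold change of each gene, KO against WT, with bars for 1 standard error, in spermatogonia and in spermatocytes. In spermatocytes all 10 points lie below 0, and in spermatogonia 7 of 9 lie below -0.9 while Aldoart1 (-0.18) and Hk1 (-0.03) lie near 0.

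The 4 WT spermatocyte libraries did not rank the genes alike. Gapdhs and Aldoart1 were highest in replicate 3 and lowest in replicate 2, 11.0- and 6.48-fold apart. Pgk2 and Hk1 were also lowest in replicate 2, with 4.58- and 2.60-fold between the highest and lowest library. Ldhc, Ldha, Cox8c, Cox6b2, Cyct and Pdha2 were instead lowest in replicate 3, by 1.39- to 2.45-fold below the highest. The 9 spermatid markers other than Prm1 summed to 543, 98.4, 1364 and 482 CPM in WT replicates 1 to 4 (Prm1 had 3155, 346, 12381 and 2318 counts) and the pachytene list to 10994, 9339, 6318 and 10736 CPM, so that replicate 3 was highest for the first and lowest for the second. In the same order the early meiotic list summed to 1442, 1516, 2385 and 1324 CPM and the Sertoli list to 152, 169, 486 and 126 CPM. The spermatogonial list summed to 1946, 1055, 877 and 1824 CPM. Replicates 1 and 4 of the spermatocytes were more alike than other pairs in both genotypes, with a median chi-square between their counts of 2.37 in WT and 3.37 in KO against 27.2 to 115 for the others. The study calls its libraries biological replicates, but no label ties either to an animal. If both came from 1 sample, the n, SD, SE and p of the spermatocytes rest on 3 samples per genotype. Summed to 1 library in each genotype they left all 10 genes called.

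**Figure D3:**
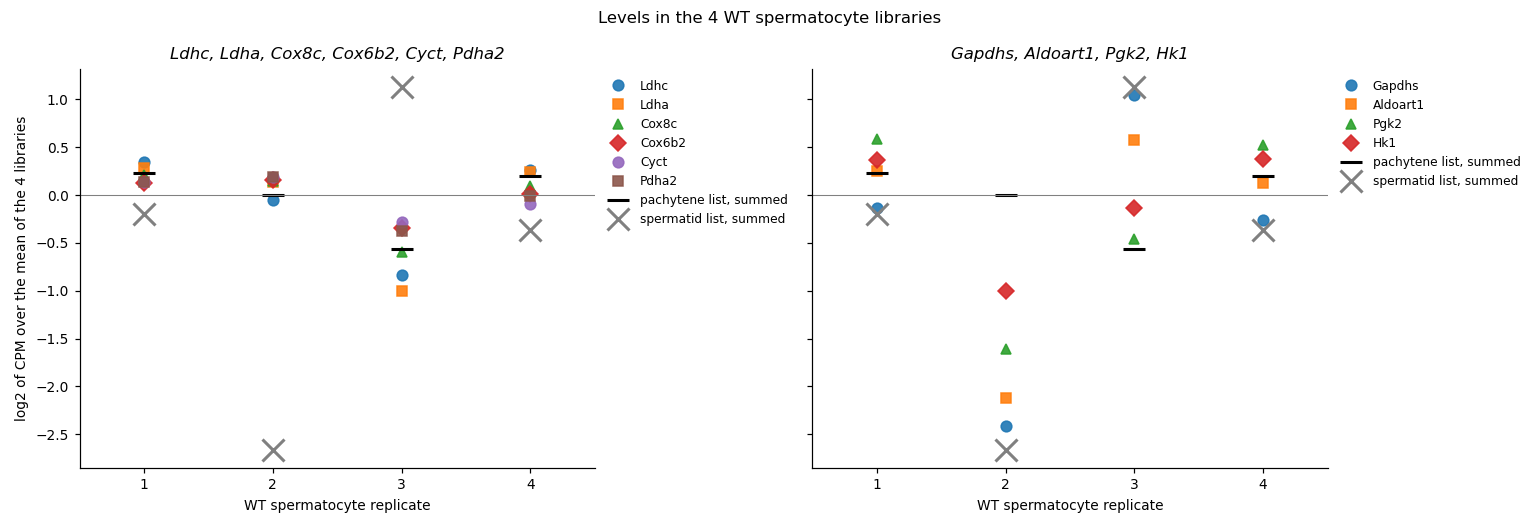
Level of each gene in WT spermatocyte replicates 1 to 4, relative to the mean of the 4 libraries on a log2 axis, beside the summed spermatid (9 genes, without Prm1) and pachytene markers. Gapdhs and Aldoart1 peak in replicate 3, as the spermatid sum does, and Ldhc, Ldha and Cox8c are lowest there.

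In spermatogonia, none of the 9 genes tested was called, where 0.0436% of all genes were (edgeR, Benjamini-Hochberg), although 7 of 9 had an unadjusted p under 0.05, as 7.30% of all genes did. DESeq2 called 4 of them, Ldhc, Pdha2, Cox8c and Cox6b2, and 591 of 32667 genes in all, where edgeR called 9 of 20659. The ranges of KO and WT lay apart, with KO lower, for Ldhc, Pgk2, Pdha2, Cox8c and Cox6b2, where 7.08% of all genes did so. Ldhc was at 1.82, 1.74 and 2.04 CPM in the KO and at 70.5, 371 and 18.0 CPM in the WT (log2 fold change -6.42, SE 1.11, adjusted p = 0.0644). The KO libraries were close to each other and the WT libraries 20.6-fold apart. It was called when WT replicate 3 was left out (-6.95, adjusted p = 0.00984) and with no filter on low counts (adjusted p = 0.00452). Cox8c was at 2.84, 1.99 and 3.32 CPM in KO and 19.0, 74.9 and 8.63 CPM in WT (-3.71, SE 0.77, adjusted p = 0.114). Pdha2 stood at 12.6, 14.4 and 16.9 CPM against 34.6, 87.7 and 21.6 CPM (-1.77, SE 0.48, adjusted p = 0.254). All KO libraries were again below the lowest WT library. Cox6b2 had 7.89, 12.3 and 13.4 CPM in KO and 21.3, 76.1 and 23.0 CPM in WT (-1.89, SE 0.52, adjusted p = 0.255).

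The other spermatogonial values overlapped or rested on few counts. Ldha was at 12.9, 4.86 and 8.34 CPM in KO and 32.2, 146 and 9.96 CPM in WT (-2.91, SE 0.89, adjusted p = 0.343). Pgk2 had 8, 0 and 8 counts in KO against 29, 301 and 11 in WT (-4.61, SE 1.45, adjusted p = 0.364). Cyct was at 14.9, 10.9 and 14.5 CPM in KO and 19.4, 43.4 and 13.9 CPM in WT, with overlapping ranges (-0.98, SE 0.42, adjusted p = 0.675). Aldoart1 and Hk1 had log2 values of -0.18 (SE 0.57) and -0.03 (SE 0.18). Gapdhs had 2, 2 and 0 counts in KO and at most 4 in WT, and was not tested.

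WT spermatogonia replicate 2 was the highest WT library for 8 of the 10 genes. Against the mean of the other WT libraries it was 17.1-fold higher for Pgk2, 8.38-fold for Ldhc, 6.92-fold for Ldha and 5.43-fold for Cox8c, and at 0.897 of it for Hk1. Of 9 pachytene markers tested in spermatogonia none was called and all had negative values (median -2.16). The whole list of 10 summed to 141 to 150.2 CPM in the KO libraries. It summed to 1201 CPM in WT replicate 2 and to 406 and 237 CPM in WT replicates 1 and 3, while the spermatid markers without Prm1 summed to 8.22, 4.60 and 3.17 CPM. Without it the log2 values of KO against WT were -4.58 for Ldhc (adjusted p = 0.019), -2.35 for Cox8c, -1.90 for Pgk2 and -1.29 for Ldha, and the median over the 9 genes was -0.99 in place of -1.89. The part of these markers in the difference was not tested.

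The genotype difference itself was compared between stages in 1 fit over all 14 libraries. It was more negative in spermatocytes for 6 genes, where 14.6% of all genes were called in this direction. These were Aldoart1 (-5.10, SE 0.91), Cox8c (-3.81, SE 0.76), Cyct (-3.33, SE 0.48), Hk1 (-3.32, SE 0.42), Cox6b2 (-2.44, SE 0.52) and Pdha2 (-2.14, SE 0.53), with adjusted p between 0.000178 and 0.00587. Aldoart1 had few counts in spermatogonia, 12, 7 and 15 in KO and 19, 9 and 8 in WT, which leaves little room for a fall there. For Ldhc the difference of -1.99 (SE 0.99, adjusted p = 0.112) did not pass, nor did Ldha (-3.28, adjusted p = 0.0196), Pgk2 (-4.60, adjusted p = 0.0517) and Gapdhs (-9.79, adjusted p = 0.0221), whose fitted value rests on counts near 0 in 3 of the 4 groups. The Pdha2 call was made in only 8 of 21 alternatives and that of Cox6b2 in 18, being lost with library totals (-1.67) and without KO spermatogonia replicate 2 (-2.29) or 3 (-2.19). With either of these libraries left out 4 genes were called. Without WT spermatogonia replicate 2, 9 of the 10 genes were called, and 6127 of 25188 genes in all in either direction, beside 6251 of 24340 with it.

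Within the KO, no gene was called between spermatocytes and spermatogonia (edgeR), where 3.05% of all genes were, and 4 of 10 had an unadjusted p under 0.05, as 24.5% of all genes did. DESeq2 called Ldhc. Spermatocyte libraries lay above all spermatogonia libraries for Ldhc, Pdha2 and Cox6b2, where 15.4% of all genes did. The Ldhc value was 3.14 (SE 0.78, adjusted p = 0.0243), and it passed without WT spermatogonia replicate 2 (adjusted p = 0.0029) or 3 (adjusted p = 0.00548), whose spread enters the shared fit. The value was 1.20 for Pdha2 (SE 0.38, adjusted p = 0.0679) and 1.00 for Cox6b2 (SE 0.37, adjusted p = 0.112). Cyct (-0.24, SE 0.33) and Hk1 (-0.03, SE 0.29) stood near 0. In the same comparison 6 of 6 macrophage, 3 of 6 Leydig and 1 of 5 peritubular markers were called higher, and none of 9 Sertoli or 10 pachytene markers. The Leydig sum was 4.77 to 9.67 CPM in KO spermatogonia and 57.3 to 356 CPM in KO spermatocytes, the macrophage sum 0.82 to 1.51 against 25.03 to 111 CPM, and the pachytene sum 141 to 150.2 against 195 to 321 CPM. The early meiotic list summed to 706 to 1105 CPM in KO spermatogonia and 1251 to 2320 CPM in KO spermatocytes. The spermatogonial list summed to 1281 to 1562 CPM in KO spermatogonia and 407 to 950 CPM in KO spermatocytes. The part of these markers was not tested. In KO spermatogonia the order per length began with Cyct (20.5 ± 3.40 CPM per kilobase, n = 3), ahead of Cox6b2 (10.1 ± 2.62) in every library, and Ldhc was 7th at 1.18 ± 0.10.

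Beside Ldha, the counterpart of Ldhc, which fell, none of the 7 other somatic counterparts was called lower in KO spermatocytes. Of Pgk1, Gapdh, Pdha1, Cox8a, Cox6b1, Cycs and Aldoa, 6 of 7 were called higher in KO spermatocytes, beside 28.0% of all genes. Pdha1 was higher by 4.16 on the log2 scale, Pgk1 by 3.13, Cox8a by 2.52, Cycs by 2.19, Gapdh by 2.14 and Cox6b1 by 1.56. Aldoa, at 0.04, was not called and changed sign with DESeq2's size factors. WT spermatocytes against WT spermatogonia, a comparison that shares the WT spermatocyte libraries, gave values of -3.02 for Pdha1, -2.68 for Pgk1, -2.49 for Gapdh, -2.46 for Cox8a, -1.97 for Cycs and -1.52 for Cox6b1, each called lower as 23.3% of all genes were, and 0.22 for Aldoa, which was not called. In spermatogonia their KO to WT values were 0.06 to 0.36 and none was called. Pgk1 (53.9%), Cycs (25.9%) and Gapdh (24.7%) share many 50-base windows with pseudogenes or other copies, so their counts are uncertain. A further gene model carrying the symbol Aldoa (chr7:126800790-126809108) was lower in KO spermatocytes by -5.47.

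Within a library, the ratio of testis copy to counterpart needs no scaling between libraries. In WT spermatocytes the mean log2 ratio was 8.04 for Pdha2 over Pdha1, 6.51 for Cox8c over Cox8a, 5.65 for Pgk2 over Pgk1, 4.43 for Cox6b2 over Cox6b1 and 3.51 for Cyct over Cycs. The testis copy thus gave most of the counts of each of these 5 pairs. In KO spermatocytes the same ratios were -0.10, -3.69, -7.24, -1.37 and -3.08. The first of these, Pdha2 over Pdha1, spanned 0, from -0.71 to 1.18 over the KO libraries, and averaged 0.57 per length. Ldhc over Ldha went from 1.38 in WT to -0.74 in KO. Its KO libraries also spanned 0, from -1.43 to 0.57, and averaged 0.32 per length. Gapdhs over Gapdh went from 0.50 to -13.17 and Aldoart1 over Aldoa from -3.82 to -8.88. For all 8 pairs every KO ratio lay below every WT ratio. The largest KO minus WT value, -13.68 for Gapdhs, depends on its zero counts and was -11.44 with 5 in place of 0.5 added to each count. In spermatogonia KO ratios lay below WT ratios for 6 of 8 pairs. Ldhc over Ldha averaged -2.11 in KO and 1.11 in WT spermatogonia, and the Gapdhs and Aldoart1 pairs overlapped.

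**Figure D4:**
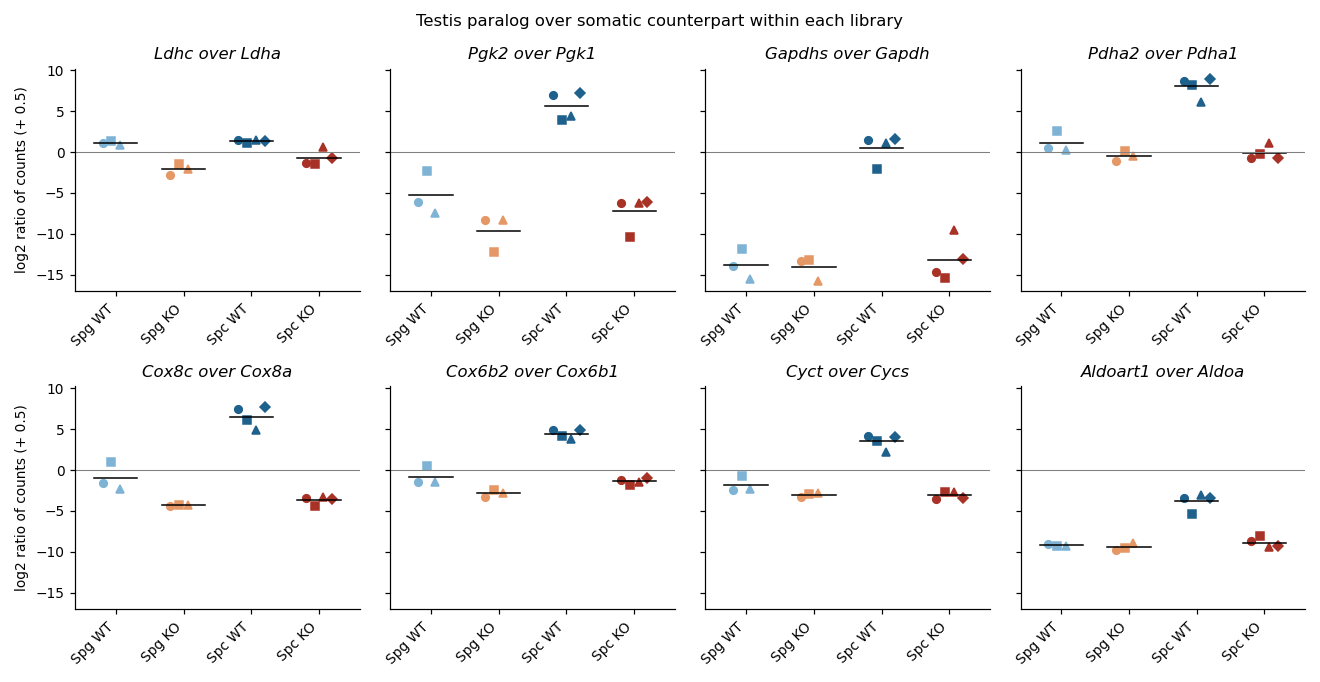
Log2 ratio of the counts of testis copy and somatic counterpart (0.5 added to each) in every library, for 8 pairs. In WT spermatocytes the group means of all pairs except Aldoart1 over Aldoa lie above 0, from 0.50 for Gapdhs to 8.04 for Pdha2. In KO spermatocytes all group means lie below 0, with the libraries of Pdha2 over Pdha1 and of Ldhc over Ldha on both sides of it.

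Other genes of the pathways, chosen with earlier results of these data known, moved both ways in KO spermatocytes, as all genes did (28.0% called higher and 30.7% lower). Of 23 tested glycolysis genes, 8 were called higher and 10 lower, with a median log2 change of 0.16. The largest falls were in Pgam2 (a phosphoglycerate mutase of muscle and germ cells, -9.21) and in the germ cell relatives of lactate dehydrogenase and aldolase, Ldhal6b (-8.72) and Aldoart2 (-6.82), and the largest rises in Pgk1, Hk2 (hexokinase 2, 2.52) and Pfkl (phosphofructokinase, 2.19). Of 11 genes of pyruvate dehydrogenase and its kinases and phosphatases, 5 were higher and 4 lower (median 1.25). The kinase gene Pdk4 rose by 4.77 and Pdk1 by 2.45, while Pdk2 (-2.87) and the subunit genes Dlat (-2.77) and Pdhb (-1.70) fell.

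Of 14 tested genes of cytochrome c and its oxidase, 5 were higher and 7 lower (median -0.76), and 5 and 3 with library totals (median -0.02), where the median of all genes was 0.79. Cox7b2, a testis form of subunit 7B, changed by -4.40, Cox7a2 by -2.23 and Cox5a by -1.52, against rises of 3.48 in Cox7b, 2.52 in Cox8a and 2.24 in Cox7a1. Among 8 tested carriers of sugars and lactate, 3 were higher and 5 lower (median -2.36). The glucose carrier Slc2a3 (-7.98), the monocarboxylate carrier Slc16a7 (-7.18) and the fructose carrier Slc2a5 (-6.90) fell most. The glucose carrier Slc2a1 (3.64) and the monocarboxylate carriers Slc16a1 (2.28) and Slc16a3 (2.21) rose. In spermatogonia no gene of these 4 lists was called, where 0.0436% of all genes were.

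**Figure D5:**
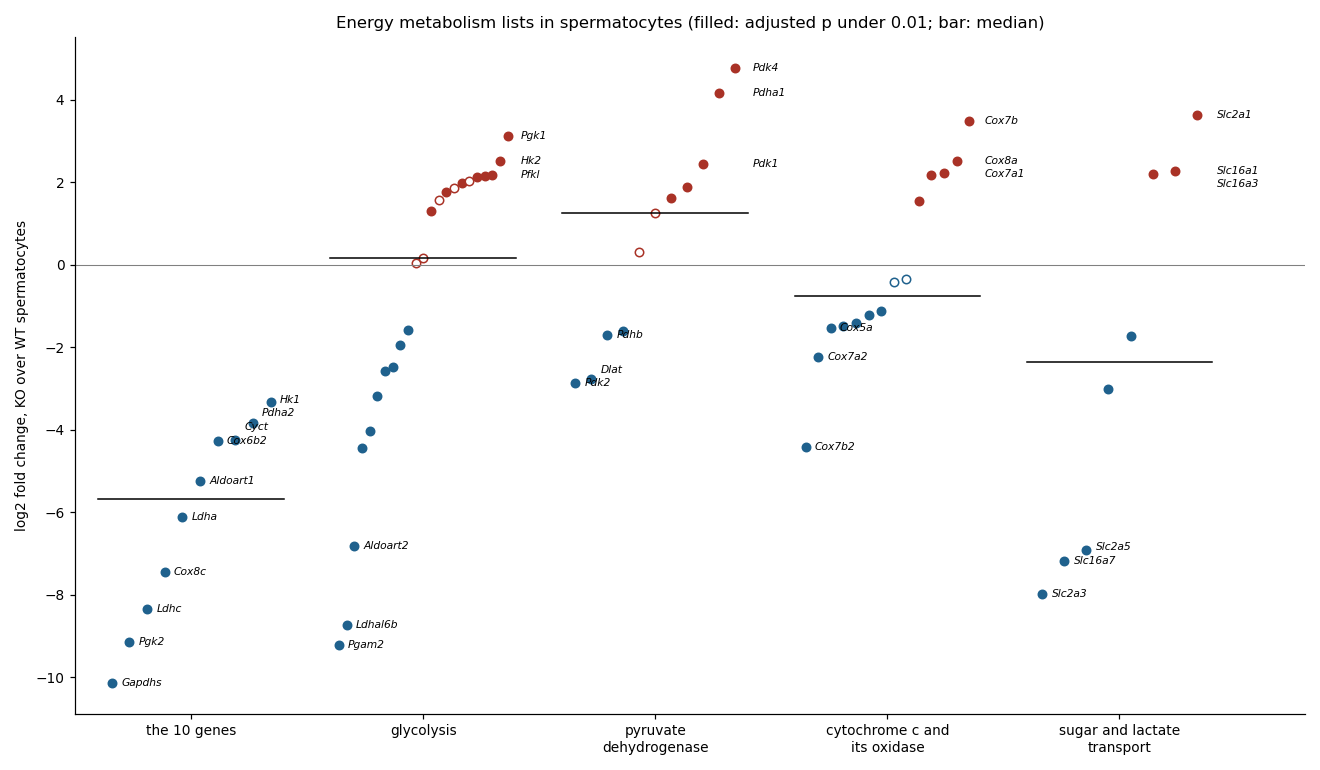
Log2 fold change, KO against WT in spermatocytes, of the genes of 4 pathway lists beside the 10 members, with called genes filled. Points below 0 are blue and points above it red, the bar is the median, and the genes with the largest falls and rises are named. The members all lie below 0 (median -5.67), while each list spreads to both sides of 0.

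As a description over the 14 libraries, which share stage and genotype, log2 levels of the 10 genes correlated with Pearson r between 0.852 and 0.989 in 45 pairs. Of 16918 genes, the 5 most like Ldhc were Wdr63 (r = 0.999), 4933414I15Rik, Ldhal6b, Gm5922 and Rsph1 (r = 0.997), and 835 genes had an r above 0.95. Among those most like Ldha were Gm10840 (r = 0.994), CT030740.1, G6pc3 and H2bc21 (r = 0.993), and 1499 genes had an r above 0.95.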

How the data were processed

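Raw counts per gene and per transposable element subfamily were deposited for 14 libraries, made by the authors from a stranded poly(A) library of 10 ng RNA (13 PCR cycles). Reads were aligned to GRCm38 with STAR 2.7.3a, keeping up to 100 alignments per read, and counted by TEtranscripts 2.2.3 in multi mode with GENCODE M25 genes. Reads that match copies of a gene are therefore shared between them. Per the submitters' processing notes, cutadapt 4.0 and DESeq2 1.44.0 were also used. The authors' log2 fold changes and p-values in the same tables, and their tables of single element copies, were not used. A library of spermatogonia per genotype that the authors excluded was not analysed here. Spermatogonia columns named rep4 belong to the samples titled replicate 3. Positions and exon lengths come from GENCODE M21 on GRCm38.

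Counts were analysed with edgeR 4.0.16 in R 4.3.3 (filterByExpr, TMM over genes and subfamilies, quasi-likelihood tests, Benjamini-Hochberg over all features tested, called at an adjusted p under 0.01), tested first on simulated data. Each stage was fitted alone with genotype as the only term, and comparisons between stages in 1 fit of 4 groups over features in both tables. Tests are two-sided. Percentages of all genes leave subfamilies out. The study calls the libraries biological replicates collected from littermates, but the labels tie none to an animal, so p-values measure the spread between these samples. Depth limits low values, so Gapdhs outside WT spermatocytes is given in counts and its fitted folds are no bounds. Intervals cover counting error only. Ratios of counts had 0.5 added to each count.

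The members, the gene lists and the tests were chosen with earlier results of these data known. Beside the 10 genes, the text names their 7 counterparts, members of the marker lists, the 3 largest called rises and falls in spermatocytes of each pathway list, and the 5 genes most correlated with Ldhc and with Ldha (log2 CPM, mean CPM of at least 1), of which 1 is not reported here. Alternatives were DESeq2 1.42.0, its size factors in edgeR, scaling by library totals, TMM over genes only, keeping all features with at least 1 count, the replicate number as a block, spermatocyte replicates 1 and 4 summed, and each library left out. Same-numbered spermatogonia libraries of KO and WT deviated together from their group means (r = 0.72, 0.19 and 0.29). However, KO replicate 2 correlated more with WT replicate 3 (r = 0.31) than with its own number. Whether the numbers pair the libraries is therefore not settled. The main fits left the number out, and the fit with it as a block is given below.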

Additional observations from a re-analysis of the deposited data

Results flagged for a closer look

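In 36 groups of 4 spermatocyte values (levels of the 10 genes and ratios of the 8 pairs), 5 had 1 library far from the others, its gap to the nearest one as a share of the range exceeding Dixon's 95% critical value, where chance gives about 1 in 20. Gapdhs in KO spermatocytes had a gap of 0.947 of the range, with replicate 3 at 0.38 CPM. The ratio of Pgk2 to Pgk1 in KO spermatocytes had 0.974, with replicate 2 lowest at a log2 ratio of -10.43 and a single Pgk2 count. Ldha in WT spermatocytes had 0.838, with replicate 3 lowest at 1036 CPM. The ratios of Gapdhs to Gapdh (0.868) and of Aldoart1 to Aldoa (0.848) in WT spermatocytes were lowest in replicate 2, at -2.07 and -5.44.

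The effect of the KO differed between the stages, by the test of the difference itself, for 6 genes. The log2 change in spermatocytes minus that in spermatogonia was -2.14 for Pdha2, -3.81 for Cox8c, -2.44 for Cox6b2, -3.33 for Cyct, -5.10 for Aldoart1 and -3.32 for Hk1.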

How the results depend on the processing

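All 10 genes stayed called in KO against WT spermatocytes and in WT spermatocytes against WT spermatogonia under every alternative run, including each library left out. In KO against WT spermatogonia the number of genes called was 0, against 4 with DESeq2, 1 with no filter on low counts and 0 to 1 with a library left out. Between KO spermatocytes and KO spermatogonia it was 0, against 1 with DESeq2 and 0 to 1 with a library left out. The number of genes whose KO effect differed between stages was 6, and 4 to 9 with a library left out. Pdha2 lost its call there with library totals (-1.38) and Cox6b2 likewise (-1.67). Values near 0 changed sign with a library left out: in KO against WT spermatogonia Aldoart1 ran from -0.44 to 0.24 (0.08 without KO replicate 2) and Hk1 from -0.22 to 0.070 (0.06 without KO replicate 1, 0.01 without WT replicate 3). Between KO stages Hk1 ran from -0.20 to 0.12 (0.03 without KO spermatocyte replicate 3). Gapdhs between KO stages had a fitted value of 2.00 (SE 1.57) that rested on few counts, and ran from -1.54, without KO spermatocyte replicate 3, to 2.38. The cause was not tested.

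With the replicate number as a block, Hk1 between KO stages was 0.45. In spermatogonia the blocked Ldhc value was -5.44 (adjusted p = 0.03), and the block changed no call of a gene described here in that comparison, though over all genes 108 were called in place of 9. Same-numbered spermatocyte libraries correlated at 0.08, 0.24, -0.02 and 0.14, which does not settle whether they are pairs. Over all genes and the other comparisons, DESeq2 called 591 genes in spermatogonia and no filter 144. Between KO stages 742 were called, against 2308 with DESeq2, 71 with the block and 346 with spermatocyte replicates 1 and 4 summed. Between WT stages it was 12777 against 8128 with the block. The stage difference gave 6251 against 9807 with DESeq2 and 3521 with the summed replicates.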
